A study of Mus musculus with 24 samples.

Results

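The 9 genes examined here stand out for a large difference between IAA-treated and control mouse embryonic stem (mES) cells and a weaker or opposite one in embryoid bodies. They are Tmem132d, Chrm1, Il17f and Grm4, with more RNA in IAA-treated mES cells, and Enpp3, Il17d, Crmp1, Ramp3 and Rgs20, with less. They were found by symbol in the tables of all 4 stages, 9 of 35742 genes. The values that chose them are their mES and embryoid body differences between IAA and Dox, so those differences are given below as a description with no test.

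Total RNA came from V6.5 mES cells, 1 cell line, in which the BRD2 protein carries a degron, a fused sequence that marks it for breakdown once auxin is present. All groups carried the degron and received doxycycline (Dox, 1 µg/ml) for 18 h, the control groups included. The IAA groups also received indole-3-acetic acid (IAA, an auxin, 500 µM) for 24 h, and the Dox groups did not. Each treatment was sampled as mES cells, grown in 2i medium with LIF, and as embryoid bodies (EB), aggregates formed without LIF, on days 2, 3 and 4 (EBd2, EBd3 and EBd4), with 3 libraries in each of the 8 groups. The labels do not say when IAA was added within EB culture, whether the libraries of a group were separate cultures, or how many clones the degron line is. The tests below thus weigh each difference against the spread of these libraries, which may be technical. A line without the degron was not analysed here, so an effect of IAA itself cannot be told apart from that of BRD2 loss.

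BRD2 is a BET protein, a reader of acetylated histones that helps RNA polymerase II to start and elongate transcripts. The 9 genes share no pathway. Most of their products act at the cell surface or in signalling from it. Several IL-17 cytokines, IL-17F among them, signal through paired receptors of the IL-17 receptor family. Muscarinic and metabotropic glutamate receptors act through G proteins, which RGS proteins switch off. RAMP proteins pair with a calcitonin-type receptor and set which peptide it binds. Such genes are better known from neurons, immune cells and vessels than from stem cells.

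Libraries held 7819522 to 15732767 reads, and EBd2 Dox 3 and EBd4 IAA 1 stood apart from the others of their groups (chi-square per degree of freedom of 3.44 and 4.09, and of 3.40 and 4.90, against 1.27 and 1.92 between the remaining pair). Brd2 RNA was 8243 ± 204 in IAA and 4497 ± 99.2 in Dox mES libraries (mean normalized counts ± SD, n = 3 each), a rise of 0.87 ± 0.02 on the log2 scale (limma, adjusted p = 1.12e-27). It checks the RNA alone, since a degron acts on the protein. The mES libraries carried the naive pluripotency markers (8 of 8 detected, summed normalized counts of 58944 to 60688 with IAA and 51533 to 53269 with Dox). Those sums were 10515 to 12778 in the EB groups. The 7 markers of the list with Fgf5, an epiblast marker, summed to 309 to 366 in mES and 3096 to 7294 in the EB groups. Fgf5 was at 0 in mES, but Otx2 of that list averaged 184 with IAA and 159 with Dox there. Eomes averaged 65.1 with IAA and 84.7 with Dox in mES, and less in EBd2 (53.7 and 69.0). The naive list also holds Pou5f1 and Sox2, and in EBd2 most of its sum was Pou5f1 (8809 with IAA and 9083 with Dox). Esrrb averaged 9252 with IAA and 8556 with Dox in mES, and 140 and 300 in EBd2. Klf4 averaged 4293 with IAA and 3037 with Dox in mES, and 32.5 and 47.8 in EBd2. Between the treatments Sox2 went the other way, at 5713 with IAA and 6015 with Dox in mES, and 2451 and 1536 in EBd2. In EBd4 Nanog added to the sum (3817 with IAA and 4788 with Dox).

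Levels below are the authors' counts divided by a size factor per library, called normalized counts. A log2 fold change is IAA over Dox from limma on log2 of the value plus 1, with its standard error (SE), and this constant makes the change of low genes smaller. In mES the IAA and Dox libraries were apart for all 9 genes, where 21.6% of 20865 tested genes had every IAA library above every Dox library and 24.2% had every one below. By size of the log2 fold change, Tmem132d ranked 2 and Chrm1 ranked 6 among genes higher with IAA, Il17f 31 and Grm4 39. Among genes lower with IAA, Enpp3 ranked 19, Ramp3 20, Il17d 27, Crmp1 29 and Rgs20 37. Just outside these sets were Pcsk5 (1.64) and Klhl41 (1.63), and Stk32a (-2.48) and Trh (-2.47). Of the 39 genes with a log2 fold change at least as large as that of Grm4, 16 were tested in all 4 stages and 14 of these had a weaker or reversed value on all 3 EB days. Of the 37 genes at or below Rgs20, 35 were tested in all stages and all 35 were weaker or reversed. A weaker value in EB was common among the genes with the largest mES differences.

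**Figure D1:**
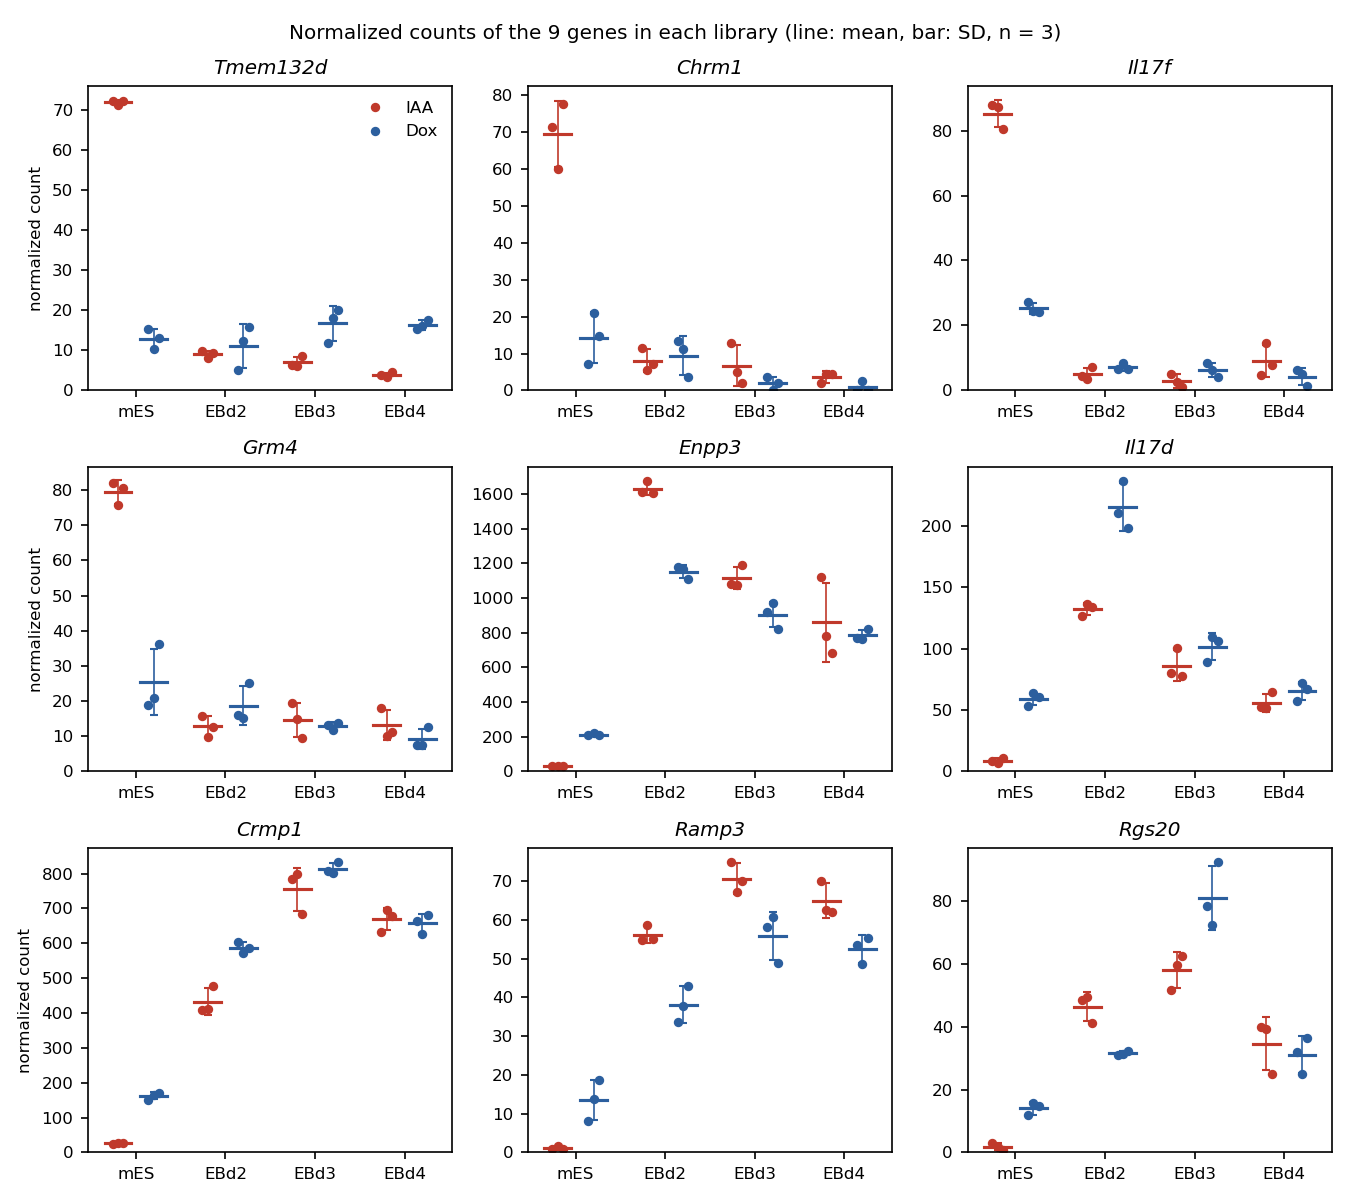
Normalized counts (y axis, linear, a scale for each gene) of the 9 genes in the 24 libraries, with IAA to the left of Dox in each of the 4 stages; points are libraries, lines are means and bars are SD (n = 3). Tmem132d, Chrm1, Il17f and Grm4 have their highest libraries in mES with IAA, and the other 5 genes have their lowest there.

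Start regions of the genes were compared because the members of each set were higher or lower together. RefSeq promoters (GRCm38.p6) were found for 5 of the 9 genes, namely Il17f, Enpp3, Il17d, Ramp3 and Crmp1, which has a window for each of its start sites. Shown are the 250 bases before the start site, 5′ to 3′ on the gene's strand, with capitals for TATAAA or GGGCGG on either strand. The Il17f and Enpp3 starts lie within the gene spans of GENCODE, and the Crmp1 window is that of its upstream start.
Il17f, chr1:20784271-20784520, minus strand: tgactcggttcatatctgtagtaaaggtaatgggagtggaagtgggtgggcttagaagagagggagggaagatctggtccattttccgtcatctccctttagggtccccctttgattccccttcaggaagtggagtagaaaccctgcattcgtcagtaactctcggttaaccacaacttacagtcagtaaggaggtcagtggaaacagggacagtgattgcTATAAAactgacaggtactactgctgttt
Il17d, chr14:57524579-57524828, plus strand: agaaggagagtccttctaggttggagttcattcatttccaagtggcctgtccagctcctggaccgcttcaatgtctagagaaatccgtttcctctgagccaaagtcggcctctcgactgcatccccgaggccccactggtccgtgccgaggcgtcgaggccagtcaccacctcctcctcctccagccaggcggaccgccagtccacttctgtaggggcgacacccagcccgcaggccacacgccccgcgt
Ramp3, chr11:6658283-6658532, plus strand: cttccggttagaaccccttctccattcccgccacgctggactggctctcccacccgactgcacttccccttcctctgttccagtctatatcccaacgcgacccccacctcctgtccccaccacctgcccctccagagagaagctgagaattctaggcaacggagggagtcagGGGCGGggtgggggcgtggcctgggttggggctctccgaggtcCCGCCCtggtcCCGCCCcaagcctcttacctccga
Enpp3, chr10:24836196-24836445, minus strand: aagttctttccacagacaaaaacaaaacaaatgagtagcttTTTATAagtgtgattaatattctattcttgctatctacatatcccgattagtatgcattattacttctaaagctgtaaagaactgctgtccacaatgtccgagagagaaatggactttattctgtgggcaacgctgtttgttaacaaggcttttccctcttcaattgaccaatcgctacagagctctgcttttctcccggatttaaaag
Crmp1, chr5:37241808-37242057, plus strand: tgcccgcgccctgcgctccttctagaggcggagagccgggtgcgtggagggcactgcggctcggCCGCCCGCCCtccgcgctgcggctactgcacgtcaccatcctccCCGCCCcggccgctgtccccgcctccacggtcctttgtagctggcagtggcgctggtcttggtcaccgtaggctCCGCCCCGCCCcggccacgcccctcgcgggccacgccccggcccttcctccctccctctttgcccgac

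The start regions did not look alike. Counts are over the whole 300-base windows, which add 50 bases after the start, and the share of 32851 promoters with each motif is over the same length. TATAAA, the TATA box core found in 13.6% of promoters, began at position -29 from the start in Il17f and, on the other strand, at -209 in Enpp3. GGGCGG, the GC box of SP factors found in 35.7%, began at -78, -35 and -24 in Ramp3. The upstream Crmp1 window held 5 GGGCGG, of which 2 pairs overlap, and its second window, not shown, held 2. CACGTG (7.15% of promoters) and TGATGNAA (3.97%) were in none of the 6 windows, and Il17d held none of the 4 motifs. CpG dinucleotides numbered 4 in Il17f, 5 in Enpp3, 15 in Ramp3, 19 in Il17d, and 41 and 20 in the Crmp1 windows, against a median of 7 and quartiles of 3 and 20 over all promoters. Il17f, the 1 gene higher with IAA in mES that had a window, thus had the fewest CpG, and the upstream Crmp1 window had more than 96.5% of promoters.

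The pair of IL-17 ligands differed between the treatments in opposite directions in mES cells. Il17f (ENSMUSG00000041872, chromosome 1, 20777146 to 20790617, minus strand) codes for a cytokine best known from Th17 cells. Its normalized counts were 87.9, 87.2 and 80.5 in IAA libraries and 27.2, 24.3 and 24.2 in Dox libraries of mES. The groups lay well apart, with means of 85.2 ± 4.07 with IAA and 25.2 ± 1.70 with Dox (SD, n = 3 each) and a log2 fold change of 1.72 ± 0.16. In EB it was low with either treatment: 4.41, 3.61 and 7.29 with IAA and 6.71, 8.51 and 6.46 with Dox in EBd2, and 5.16, 2.48 and 1.06 with IAA and 8.31, 6.39 and 4.24 with Dox in EBd3. In EBd4 it was at 4.74, 14.5 and 7.89 with IAA and at 6.37, 4.98 and 1.26 with Dox. The groups overlapped on all 3 EB days, with log2 fold changes of -0.47 ± 0.38, -1.01 ± 0.52 and 1.00 ± 0.54, and the means of the 6 EB groups each rest on 7 to 26 reads. In both treatments its mES libraries were all higher than any EB library.

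Il17d (ENSMUSG00000050222, chromosome 14, 57524777 to 57543166, plus strand), a family member expressed outside the immune system as well, did the reverse in mES. It had 8.79, 7.05 and 10.5 normalized counts with IAA and 53.4, 63.4 and 60.4 with Dox, a log2 fold change of -2.63 ± 0.22. In EBd2 it had 126, 136 and 134 with IAA and 210.5, 236 and 198 with Dox, still apart and in the same direction (-0.69 ± 0.09). The ranges overlapped in EBd3 (80.0, 100.6 and 77.5 with IAA, 89.0, 109.6 and 106 with Dox) and in EBd4 (52.1, 51.5 and 64.3 with IAA, 57.3, 72.3 and 66.7 with Dox). Its difference had the same sign in all 4 stages, and its size was smaller on each EB day than in mES. Per kilobase of exon, mES IAA cells held 6.90 normalized counts of Il17d and 42.1 of Il17f, and mES Dox cells 46.4 of Il17d and 12.5 of Il17f. The order of the 2 cytokine RNAs thus differed between the treatments in mES.

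Chrm1 and Grm4, genes of G protein-coupled receptors, were both in the set higher with IAA. Chrm1 (ENSMUSG00000032773, chromosome 19, 8663789 to 8683587, plus strand) codes for the muscarinic acetylcholine receptor M1, which couples to Gq. Its mES values were 71.3, 59.9 and 77.5 with IAA and 7.25, 20.8 and 14.9 with Dox, a log2 fold change of 2.31 ± 0.24. The Dox libraries varied from each other by more than 2-fold, yet all lay below the lowest IAA library. In EBd2 it had 11.5, 5.41 and 7.29 with IAA and 13.4, 11.3 and 3.59 with Dox, which overlap. In EBd3 it had 12.9, 4.97 and 2.12 with IAA and 3.56, 0 and 2.12 with Dox, and in EBd4 1.90, 4.48 and 4.51 with IAA and 0, 2.49 and 0 with Dox. These rest on 16 reads with IAA and 5 with Dox in EBd3, and on 10 with IAA and 2 with Dox in EBd4. The log2 fold change was 1.40 ± 0.63 in EBd3 and 1.55 ± 0.65 in EBd4. By the authors' DESeq2 values it was 2.28 in mES, 1.81 ± 0.84 in EBd3 and 2.08 ± 1.19 in EBd4 (SE). From the reads, the EBd4 ratio of IAA over Dox was 4.20, with an exact 95% interval of 0.90 to 39.4. So few reads cannot show that the Chrm1 difference was weaker in EBd4 than in mES.

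Grm4 (ENSMUSG00000063239, chromosome 17, 27422387 to 27521403, minus strand) codes for metabotropic glutamate receptor 4, which couples to inhibitory G proteins. Its mES values were 82.1, 75.7 and 80.5 with IAA and 19.0, 20.8 and 36.2 with Dox, with means of 79.5 ± 3.30 with IAA and 25.4 ± 9.46 with Dox (SD, n = 3 each) and a log2 fold change of 1.67 ± 0.18. Dox 3 was the highest control library and still below the IAA range. Its EBd2 values were 15.9, 9.92 and 12.6 with IAA and 15.9, 15.1 and 25.1 with Dox. It had 19.4, 14.9 and 9.55 with IAA and 13.1, 11.7 and 13.8 with Dox in EBd3, and 18.0, 10.1 and 11.3 with IAA and 7.64, 7.48 and 12.6 with Dox in EBd4. The groups overlapped on each EB day, with log2 fold changes of -0.50 ± 0.29, 0.12 ± 0.34 and 0.46 ± 0.37.

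Tmem132d (ENSMUSG00000034310, chromosome 5, 127781630 to 128433077, minus strand) codes for a single-pass membrane protein known from brain and spans 651 kb. Its mES values were 72.3, 71.3 and 72.3 with IAA and 15.4, 10.4 and 13.0 with Dox, a log2 fold change of 2.40 ± 0.20. The 3 IAA libraries were closer to each other than those of any other of the 4 genes higher with IAA. Embryoid bodies of day 2 had 9.71, 8.12 and 9.28 with IAA and 5.03, 12.3 and 15.8 with Dox, which overlap. In EBd3 it had 6.45, 6.21 and 8.49 with IAA and 11.9, 18.1 and 20.2 with Dox (-1.12 ± 0.36), and in EBd4 3.79, 3.36 and 4.51 with IAA and 15.3, 16.2 and 17.6 with Dox (-1.83 ± 0.37). These rest on 18 reads with IAA and 46 with Dox in EBd3, and on 11 with IAA and 39 with Dox in EBd4. Its IAA libraries were thus all above Dox in mES and all below Dox in EBd3 and EBd4, while its Dox means lay between 11.0 ± 5.49 in EBd2 and 16.7 ± 4.31 in EBd3, with 12.9 ± 2.49 in mES (SD, n = 3 each). Its EBd2 log2 fold change was 0.16 ± 0.39 without Dox 3, in place of -0.14 ± 0.37.

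Ramp3 (ENSMUSG00000041046, chromosome 11, 6658521 to 6677475, plus strand) codes for an accessory protein that turns the calcitonin receptor-like receptor into an adrenomedullin receptor. In mES it had 0.977, 1.76 and 0.753 normalized counts with IAA and 8.15, 13.9 and 18.6 with Dox, that is 4 reads with IAA and 45 with Dox. The ratio of the means, Dox over IAA, was 11.6, and the log2 fold change was -2.71 ± 0.43 by limma and -3.56 in the authors' deposited table. In EBd2 it was at 54.7, 58.6 and 55.0 with IAA and 33.5, 37.8 and 43.1 with Dox. In EBd3 it was at 74.8, 67.1 and 70.1 with IAA and 58.2, 60.7 and 48.8 with Dox, and in EBd4 at 70.1, 62.7 and 62.0 with IAA and 53.5, 48.6 and 55.4 with Dox. Of the 9 genes it alone had every IAA library above every Dox library on all 3 EB days (0.55 ± 0.16, 0.34 ± 0.16 and 0.30 ± 0.16).

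The cell-surface enzyme gene Enpp3 (ENSMUSG00000019989, chromosome 10, 24772406 to 24842823, minus strand), whose product cleaves extracellular nucleotides, had the widest range of levels in normalized counts. In mES it had 31.3, 30.8 and 30.9 with IAA and 207, 219.8 and 208 with Dox, a log2 fold change of -2.73 ± 0.12. In EBd2 it had 1612, 1672 and 1604 with IAA and 1179, 1167 and 1110.3 with Dox (0.50 ± 0.05), and in EBd3 1080.0, 1077 and 1189 with IAA and 919, 969 and 823 with Dox (0.31 ± 0.06). The IAA libraries were below Dox in mES and above it in EBd2 and EBd3. In EBd4 the ranges overlapped, with 1118, 779 and 681 with IAA and 772, 765 and 822 with Dox. The high value there is that of IAA 1, the library that stood apart, and without it the log2 fold change of 0.10 ± 0.13 became negative, -0.11.

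Rgs20 and Crmp1 code for proteins inside the cell. Rgs20 (ENSMUSG00000002459, chromosome 1, 4909576 to 5070285, minus strand) is of the RZ family, which speeds the switching-off of G alpha z. Its mES values were 2.93, 1.76 and 0.753 with IAA (6 reads) and 11.8, 15.6 and 14.9 with Dox (47 reads), a log2 fold change of -2.49 ± 0.41. In EBd2 it had 48.6, 49.6 and 41.1 with IAA and 31.0, 31.2 and 32.3 with Dox (0.54 ± 0.17), and in EBd3 51.6, 59.6 and 62.6 with IAA and 78.4, 72.4 and 92.3 with Dox (-0.47 ± 0.16). In EBd4 it had 39.8, 39.2 and 24.8 with IAA and 31.8, 24.9 and 36.5 with Dox. Its IAA libraries were thus below Dox in mES, above it in EBd2 and below it in EBd3, and the ranges overlapped in EBd4.

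Crmp1 (ENSMUSG00000029121, chromosome 5, 37241940 to 37292133, plus strand) codes for a collapsin response mediator protein, which relays semaphorin signals to the cytoskeleton of axons. Its mES values were 24.4, 27.3 and 27.9 with IAA and 151, 164 and 171 with Dox, a log2 fold change of -2.57 ± 0.13. Its EBd2 values were 408, 412 and 477 with IAA and 604, 572 and 588 with Dox (-0.45 ± 0.07), and in EBd3 783, 799 and 685 with IAA and 806, 802 and 833 with Dox (-0.11 ± 0.06). In EBd4 it had 633, 695 and 679 with IAA and 663, 627 and 681 with Dox (0.03 ± 0.06). The gap between the treatments was smaller at each later stage, and in EBd4 the libraries overlapped.

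**Figure D2:**
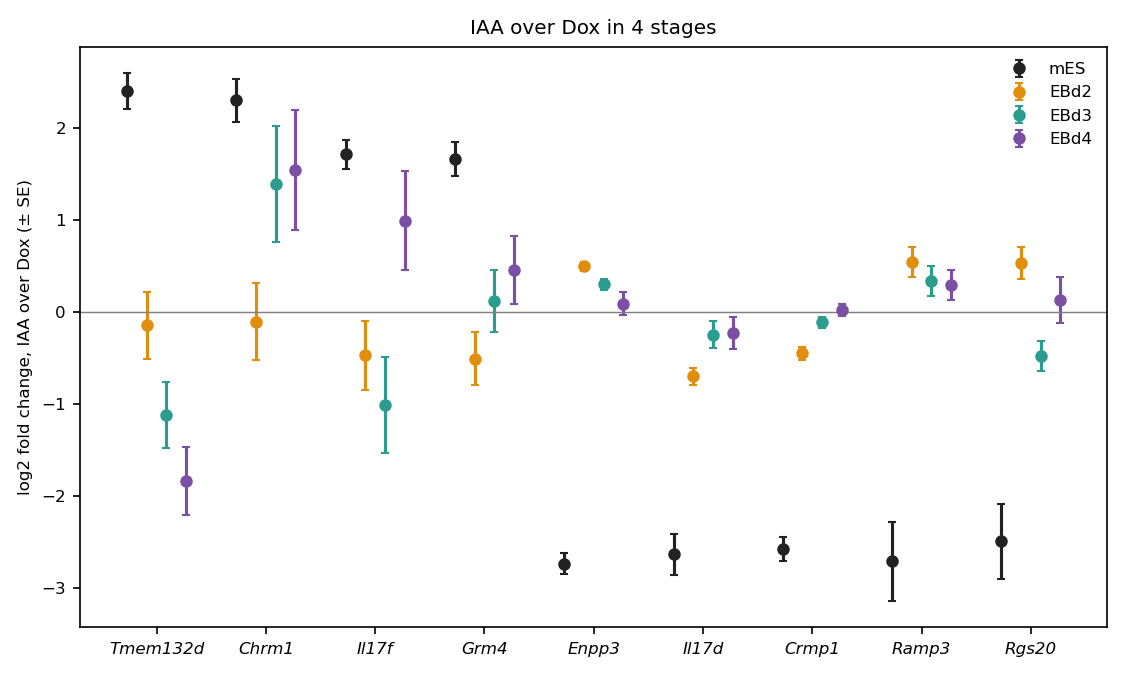
Log2 fold change of IAA over Dox (y axis, limma, points with SE bars) of the 9 genes in mES, EBd2, EBd3 and EBd4. The mES values lie between 1.67 and 2.40 for the 4 genes higher with IAA and between -2.73 and -2.49 for the 5 lower ones, and the EB values of all 9 genes lie between -1.83 and 1.55.

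Counting all 9 genes, the IAA libraries were apart from Dox for 5 in EBd2, namely above for Enpp3, Ramp3 and Rgs20 (18.4% of all 22076 tested genes were above) and below for Il17d and Crmp1 (23.5% below). In EBd3 they were above for Enpp3 and Ramp3 (12.3%) and below for Tmem132d, Crmp1 and Rgs20 (14.7%). In EBd4 they were above for Ramp3 (12.8%) and below for Tmem132d (15.7%). Without EBd2 Dox 3, Chrm1 in EBd2 was at -0.61 ± 0.38 in place of -0.10 ± 0.42 and Grm4 at -0.28 ± 0.32 in place of -0.50 ± 0.29. Among EB values within their SE of 0, a change of sign was also seen for Chrm1 in EBd2 (0.12 without IAA 2, 0.21 without Dox 1 and 0.10 without Dox 2), for Grm4 in EBd3 (-0.09 without IAA 1), and in EBd4 for Crmp1 (-0.01 without Dox 2) and Rgs20 (-0.01 without Dox 2).

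The mES level under Dox differed between the sets. Of the 8 group means, mES with IAA was the highest for Tmem132d, Chrm1, Il17f and Grm4, and its libraries were apart from the next group. The mES Dox group came second for Chrm1, Il17f and Grm4, apart from the next for Il17f, and had rank 4 for Tmem132d, in overlap with its neighbours. For Enpp3, Crmp1, Ramp3 and Rgs20, mES with IAA came last and mES with Dox seventh, each apart from its neighbours. For Il17d, mES with Dox was sixth, overlapping both EBd4 groups. The EBd2 over mES log2 fold changes of the 5 lower genes were 5.67 for Enpp3, 4.75 for Ramp3, 4.15 for Rgs20, 3.97 for Crmp1 and 3.78 for Il17d in IAA libraries. In Dox libraries they were 2.44 for Enpp3, 1.49 for Ramp3, 1.12 for Rgs20, 1.85 for Crmp1 and 1.85 for Il17d. These steps share the mES libraries that chose the genes and have no test. The 5 RNAs lower with IAA in mES were thus higher in EBd2 than in mES with either treatment. For the other set the EBd2 over mES values with IAA were -3.86 for Il17f, -3.01 for Chrm1, -2.87 for Tmem132d and -2.57 for Grm4. With Dox they were -1.68 ± 0.41 for Il17f, -0.60 ± 0.61 for Chrm1, -0.32 ± 0.35 for Tmem132d and -0.40 ± 0.32 for Grm4.

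The steps between EB days within a treatment are another contrast than IAA over Dox and were tested with limma over the 12 libraries of a treatment. They share the EB libraries whose IAA over Dox values entered the choice, so they are not independent of it, and the mES libraries add only to the estimate of the spread. With Dox, Rgs20 and Crmp1 rose in EBd3 relative to EBd2 and Enpp3, Il17d and Chrm1 fell, 5 of 9 genes against 46.4% of all 22141 tested (22.0% up and 24.4% down). Rgs20 averaged 81.0 ± 10.2 in EBd3 and 31.5 ± 0.692 in EBd2 (log2 1.33 ± 0.21, adjusted p = 1.24e-05), and Crmp1 had 806, 802 and 833 in EBd3 and 604, 572 and 588 in EBd2 (0.47 ± 0.06, adjusted p = 7.77e-07). Il17d averaged 101.6 ± 11.0 in EBd3 and 215 ± 19.5 in EBd2 (-1.08 ± 0.13, adjusted p = 2.71e-07), and Enpp3 904 ± 73.8 in EBd3 and 1152 ± 36.7 in EBd2 (-0.35 ± 0.06, adjusted p = 3.09e-05). The fall of Chrm1 (-1.95 ± 0.61, adjusted p = 0.0105) was lost without EBd2 Dox 1, EBd2 Dox 2 or EBd3 Dox 2 (adjusted p = 0.0619, 0.0508 and 0.0966). Tmem132d, at 0.65 ± 0.35 (adjusted p = 0.139), passed the threshold without EBd2 Dox 3, at 0.95 (adjusted p = 0.0424). Ramp3 was at 0.54 ± 0.24 (adjusted p = 0.0645) and passed with edgeR (adjusted p = 0.00983) and without mES Dox 1 or mES Dox 3 (adjusted p = 0.0269 and 0.0415).

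In EBd4 relative to EBd3 with Dox, 4 of the 9 genes passed, all of them lower (33.7% of all genes passed, 16.1% up and 17.6% down). Rgs20 fell to 31.1 ± 5.83, against 81.0 ± 10.2 in EBd3 (log2 -1.36 ± 0.21, adjusted p = 1.85e-05), so that among the EB days its Dox level was highest on day 3. Il17d fell by 0.63 ± 0.13 (adjusted p = 0.000556) and Crmp1 fell by 0.31 ± 0.06 (adjusted p = 0.000335). Enpp3 fell by 0.20 ± 0.06 (adjusted p = 0.0127), which was lost without EBd3 Dox 2 or EBd4 Dox 2 (adjusted p = 0.102 and 0.0543).

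With IAA, Crmp1 rose to 756 ± 61.9 in EBd3, against 432 ± 38.5 in EBd2 (log2 0.80 ± 0.09, adjusted p = 1.23e-07). Enpp3 (-0.55 ± 0.11, adjusted p = 0.000356) and Il17d (-0.62 ± 0.18, adjusted p = 0.00701) fell, 3 of 9 genes against 42.6% of all 21702 (20.3% up and 22.3% down). Rgs20, at 0.31 ± 0.29 (adjusted p = 0.408), did not pass. Il17f, at -0.74 ± 0.41 (adjusted p = 0.160), passed without EBd3 IAA 1 at -1.14 (adjusted p = 0.0386). In EBd4 relative to EBd3 with IAA, 1 gene rose and 3 fell (35.9% of all genes passed, 17.6% up and 18.3% down). Il17f rose by 1.39 ± 0.41 (adjusted p = 0.0115), which was lost without EBd3 IAA 3 or EBd4 IAA 2 (adjusted p = 0.0753 and 0.0871). Enpp3 fell by 0.41 ± 0.11 (adjusted p = 0.00610), lost with DESeq2 (adjusted p = 0.0732) and without EBd4 IAA 3 (adjusted p = 0.0553). Il17d fell by 0.61 ± 0.18 (adjusted p = 0.0100), lost without EBd3 IAA 2 (adjusted p = 0.0579). The fall of Rgs20 (-0.75 ± 0.29, adjusted p = 0.0444) was near the threshold. It was lost with a pseudocount of 0.5 (adjusted p = 0.0702), with no filter on low values (adjusted p = 0.0725) and without any 1 of 8 EB libraries, namely all but EBd4 IAA 1 (adjusted p from 0.0539 to 0.197). Tmem132d was at -0.72 ± 0.29 (adjusted p = 0.0571), and passed with a minimum mean of 5 (adjusted p = 0.0366). Crmp1 was at -0.17 ± 0.09 (adjusted p = 0.122), and passed with edgeR (adjusted p = 0.0250) and without EBd3 IAA 3 (adjusted p = 0.0498). Whether these steps differ between the treatments was not tested.

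Relatives of the 9 genes, which did not enter the choice, were next compared between IAA and Dox. Of 45 such genes in 8 lists, 27 were measured in mES, of which 1 rose and 12 fell (limma, 37.5% of all genes passed, 17.3% up and 20.1% down). With DESeq2 the 13 calls became 8, where 5542 of all 20865 genes passed (2758 up and 2784 down). With limma 7821 of all genes had passed. The median limma log2 fold change of the 27 relatives was -0.42, against -0.01 over all 20865 genes. In the IL-17 family 4 of 6 measured members fell, and 1 with DESeq2. The receptor gene Il17rc, whose product binds IL-17F, fell to 90.3 ± 4.28 with IAA, against 119 ± 8.60 with Dox (-0.39 ± 0.10, adjusted p = 0.00284). The ligand gene Il17b was at 2.30 ± 1.85 with IAA and 6.61 ± 1.94 with Dox (-1.31 ± 0.46, adjusted p = 0.0223), a call lost with DESeq2 (adjusted p = 0.149), in a fit of all 24 libraries (adjusted p = 0.0686) and without IAA 1, IAA 3, Dox 2 or Dox 3 (adjusted p from 0.0714 to 0.103).

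Most measured relatives of Crmp1 and Rgs20 fell in mES. Of the 4 other CRMP genes 3 fell (2 with DESeq2), among them Dpysl3, to 511 ± 17.5 with IAA, against 850.0 ± 24.2 with Dox (-0.73 ± 0.05, adjusted p = 3.4e-16), and Dpysl2, to 37.5 ± 4.22 with IAA, against 70.8 ± 6.49 with Dox (-0.90 ± 0.15, adjusted p = 6.12e-06). All 3 genes of the RZ and G alpha z list fell. Rgs19 fell to 113 ± 13.2 with IAA, against 175 ± 1.36 with Dox (-0.63 ± 0.09, adjusted p = 5.78e-07), and Rgs17 to 1.49 ± 0.645 with IAA, against 8.45 ± 2.14 with Dox (-1.93 ± 0.44, adjusted p = 0.000522). In the ENPP family 1 of 3 fell, the glycoprotein gene Enpp5 (43.7 ± 5.14 with IAA and 85.7 ± 9.89 with Dox, -0.95 ± 0.14, adjusted p = 6.45e-07). Of the 5 measured RAMP genes and partners, Calca, the gene of calcitonin and the peptide CGRP, rose to 512 ± 33.7 with IAA, against 416 ± 9.95 with Dox (0.30 ± 0.05, adjusted p = 2.28e-05). Ramp2 fell to 4.34 ± 1.62 with IAA, against 10.8 ± 1.11 with Dox (-1.19 ± 0.37, adjusted p = 0.00955), a call lost with DESeq2 (adjusted p = 0.0805) and without IAA 2 (adjusted p = 0.0558). Of the 6 measured relatives of Chrm1, Grm4 and Tmem132d, 0 passed in mES with limma, edgeR or DESeq2, and 0 had an unadjusted p under 0.05 with limma. They were Chrm4 (0.30, adjusted p = 0.396), Grm2 (0.60, adjusted p = 0.387), Grm8 (-0.67, adjusted p = 0.418) and Tmem132a, Tmem132b and Tmem132c.

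**Figure D3:**
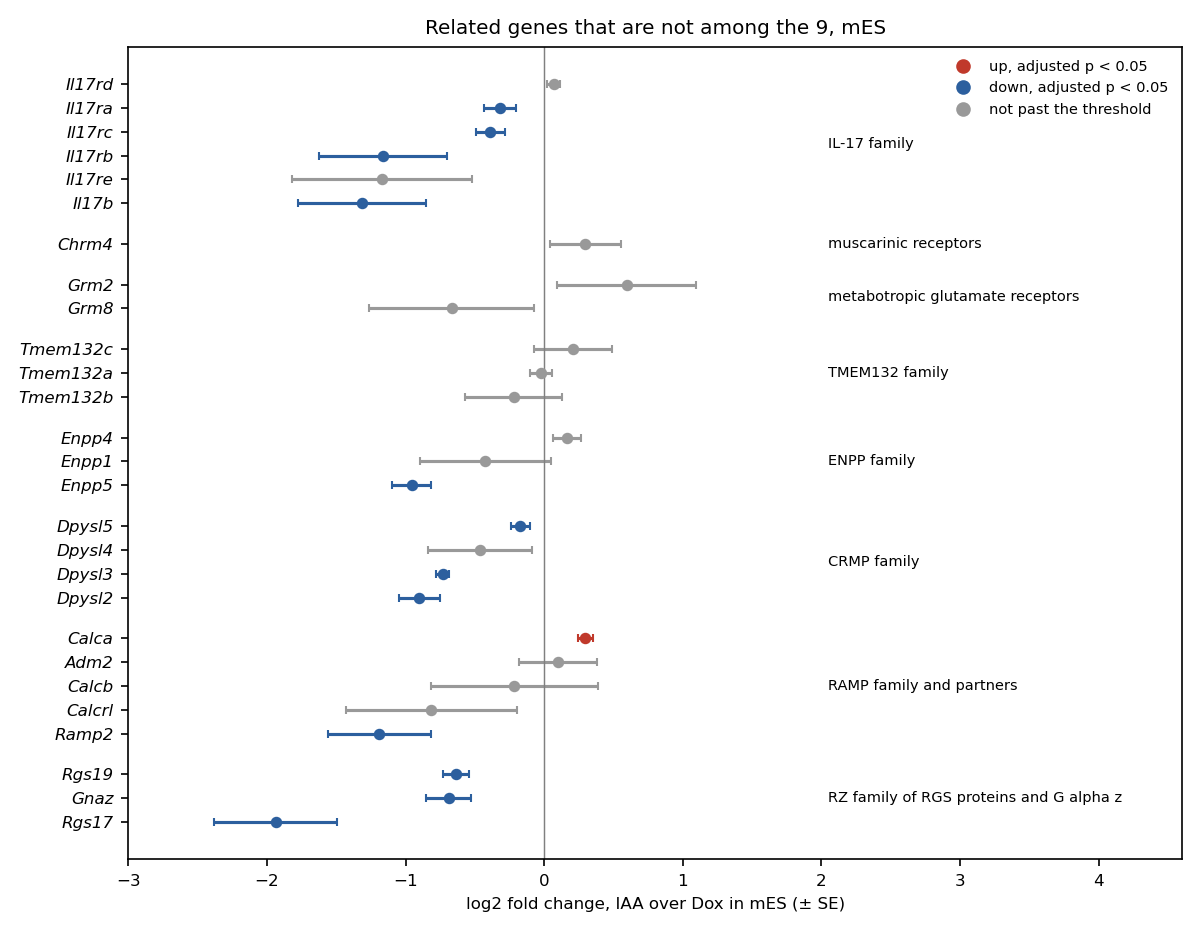
Log2 fold change of IAA over Dox in mES (x axis, limma, points with SE bars) of the 27 measured relatives of the 9 genes, grouped by list. Of these, 1 gene, Calca, is past the threshold upward and 12 are past it downward, among them 3 CRMP genes and all 3 of the RZ family list.

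The relatives were also compared on EB days. In EBd2 5 rose and 9 fell of 36 measured (30.1% of all genes passed, 13.4% up and 16.7% down), in EBd3 1 rose and 2 fell of 35 (10.5% of all genes, 4.22% up and 6.32% down), and in EBd4 2 rose and 4 fell of 32 (10.3% of all genes, 4.69% up and 5.57% down). The 14 calls of EBd2 became 8 with DESeq2 and 7 in a fit of all 24 libraries. Over all genes, 4835 of 22076 passed in EBd2 with DESeq2 and 6130 in that fit, against 6638 with limma. In EBd3 1283 of all 21304 genes passed with DESeq2. The 3 calls of EBd3 became 1 with DESeq2, 1 without IAA 2, Dox 1, Dox 2 or Dox 3 and 2 without IAA 1, and the 6 of EBd4 became 3 without Dox 1 or Dox 2 and 4 without IAA 2. Il17rc fell on each day, by 0.94 ± 0.16 in EBd2 (adjusted p = 9.52e-05), 0.59 ± 0.18 in EBd3 (adjusted p = 0.0361) and 0.72 ± 0.16 in EBd4 (adjusted p = 0.0114). The EBd3 call was lost with DESeq2 (adjusted p = 0.156) and without IAA 2, IAA 3, Dox 1, Dox 2 or Dox 3 (adjusted p from 0.0697 to 0.168). The EBd4 call was lost with DESeq2 (adjusted p = 0.0506) and without IAA 2, Dox 1 or Dox 2 (adjusted p from 0.0547 to 0.0746). Calca rose on each day as well, by 0.39 ± 0.06 (adjusted p = 8.79e-05), 0.30 ± 0.07 (adjusted p = 0.00565) and 0.35 ± 0.09 (adjusted p = 0.0272). Its EBd3 call was lost without Dox 3 (adjusted p = 0.0556), and its EBd4 call without IAA 1, IAA 2, Dox 1, Dox 2 or Dox 3 (adjusted p from 0.0659 to 0.141). Enpp5 rose in EBd4 (0.45 ± 0.10, adjusted p = 0.00777), against its fall in mES, and that call was lost without Dox 1 or Dox 2 (adjusted p = 0.0605 and 0.0541). Neither Dpysl2 nor Dpysl3 passed on any EB day, and Rgs17 was at 1.07 ± 0.41 in EBd2 (adjusted p = 0.0566) and passed there with a minimum mean of 5 (adjusted p = 0.0498), with TMM scaling (adjusted p = 0.0496), in the fit of all 24 libraries (adjusted p = 0.0270) and without Dox 2 (adjusted p = 0.0240).

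The nearest coding genes on each side of the 9 were measured for 14 neighbours in mES, of which 5 rose and 3 fell (37.5% of all genes passed, 17.3% up and 20.1% down), with no absolute log2 fold change over 1.04. Slc3a2, 23.3 kb from Chrm1, rose by 0.29 ± 0.03 (adjusted p = 2.94e-12), and Mcm3, 12.4 kb from Il17f, by 0.10 ± 0.02 (adjusted p = 0.00111). The closest neighbours were those of Il17d, Eef1akmt1 at 6.43 kb (-0.23 ± 0.10, adjusted p = 0.0765) and Ift88 at 6.84 kb (-0.07 ± 0.08, adjusted p = 0.570), and neither passed. Eef1akmt1 passed in a fit of all 24 libraries (adjusted p = 0.0185). On the sides of Tmem132d, Glt1d1 fell by 0.44 ± 0.05 (adjusted p = 1.13e-08) and Fzd10 rose by 0.36 ± 0.04 (adjusted p = 2.07e-09). In the fit of all 24 libraries the calls of Fzd10 (adjusted p = 0.323) and Mcm3 (adjusted p = 0.0576) were lost. The rise of Med23 beside Enpp3 (0.14, adjusted p = 0.0206) was lost with DESeq2 (adjusted p = 0.0710), in the fit of all 24 libraries (adjusted p = 0.0535) and without IAA 3, Dox 2 or Dox 3 (adjusted p from 0.0654 to 0.170). The fall of Tcea1 beside Rgs20 (-0.10, adjusted p = 0.0146) was lost with DESeq2 (adjusted p = 0.108), in the fit of all 24 libraries (adjusted p = 0.0709) and without IAA 2, Dox 1 or Dox 3 (adjusted p from 0.0502 to 0.0704). Evc2, beyond the end of Crmp1, fell by 0.37 ± 0.07 (adjusted p = 6.97e-05). The largest neighbour value was that of Oprk1 beside Rgs20 (-1.04 ± 0.53, adjusted p = 0.128), a gene with 0.870 ± 0.112 normalized counts with IAA and 2.98 ± 1.28 with Dox, which passed in the fit of all 24 libraries (adjusted p = 0.00717). Slc22a6 beside Chrm1 and Wap and Gm11983 beside Ramp3 were listed at 0, and Il17a beside Il17f was not analysed here.

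**Figure D4:**
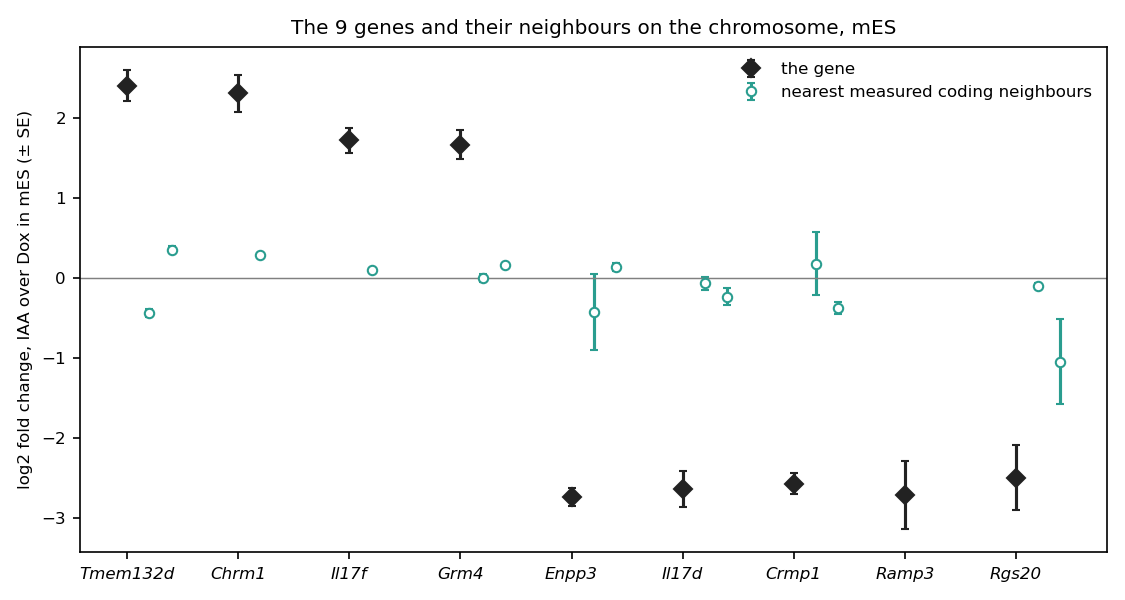
Log2 fold change of IAA over Dox in mES (y axis, limma, SE bars) of each of the 9 genes (diamonds) and of its nearest measured coding neighbours (circles). The 14 neighbours lie between -1.04 and 0.36, nearer to 0 than any of the 9 genes.

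Some of the 9 genes overlap others, and whether reads were counted by strand is not given in the sources used here. Rgs20 shares 127 of its 4239 exonic bases with Atp6v1h on the other strand, which averaged 716 ± 11.9 with IAA and 840.3 ± 34.8 with Dox in mES (-0.23 ± 0.04, adjusted p = 3.05e-05). How reads over the shared bases were assigned is not given, and their part in the Rgs20 values was not tested. Evc overlaps the span of Crmp1 on the other strand with no shared exonic base. Its values were -0.39 ± 0.07 in mES (adjusted p = 4.49e-05) and 0.32 ± 0.07 in EBd2 (adjusted p = 0.00164). Both were looked at for the overlap and lie outside the naming rule. Ramp3 shares 101 exonic bases with the pseudogene Gm11978, which had a mean of 0.276 in mES. Chrm1 shares 329 exonic bases with the RNA gene Gm22820 on the other strand, for which there are no values here. Rgs20 also shares 125 exonic bases with the pseudogene Gm17101 on the other strand, which was at 0 in mES. The 9 genes had a median genomic span of 50.2 kb, against 13.9 kb of 20837 tested genes with a position, and ranged from Il17f with 13.5 kb to Tmem132d. The 9 are all protein-coding, while the 20837 were not limited to a gene type, so the medians are of unlike sets.

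Genes with the most alike pattern over the 24 libraries were found by Pearson correlation of log2 values, which treatment and stage both shape. For Crmp1 these were Arfgef3 and Lrrfip1 (r = 0.99 each), for Enpp3 B3gnt7 and Arrdc1 (0.98 each), for Ramp3 Hps3 and Fsd1 (0.98 each), for Il17d Plekhb1 and Adam23 (0.97 each) and for Rgs20 Doc2a and Sms (0.97 each). Several were also lower with IAA in mES, by log2 fold changes of -2.12 for B3gnt7, -2.03 for Plekhb1, -1.96 for Lrrfip1, -1.92 for Arfgef3 and -1.38 for Adam23. For the genes higher with IAA the likeness was less, with Prrc2b (0.94) and Gga1 (0.93) for Il17f, Acacb (0.92) and Stk35 (0.90) for Grm4, Numbl (0.91) and Tmem253 (0.90) for Chrm1, and Lemd3 and Flrt2 (0.84 each) for Tmem132d. Their mES differences were small beside those of the 9, with 0.91 ± 0.11 for Flrt2 the largest and 0.05 ± 0.04 for Gga1 the smallest. Chrm1, Il17f and Tmem132d rest on few reads in EB, and the part of this in their lower r was not tested. Among the 9 genes r ran from 0.80 to 0.98 within the 5 lower genes and from 0.45 to 0.82 within the 4 higher ones. Each set was chosen for 1 direction in mES in these same libraries, so likeness within a set follows in part from the choice. The same holds for the mES differences of genes picked for their likeness to a member. These values are a description and no evidence of shared regulation.

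Markers of cell types that use these genes were looked at in the same libraries. In bulk RNA, fewer cells of a type and less RNA per cell cannot be told apart. Of 7 T cell markers, Ptprc and Il23r were at 0 in every mES library, and the list summed to 189 to 197 with IAA and 199 to 228 with Dox. Most of that sum was Lck (171 with IAA and 179 with Dox). Neuron markers (8 of 8 found, Dcx at 0) summed to 3549 to 3633 with IAA and 3813 to 3959 with Dox in mES. Most of it came from Stmn2, lower with IAA (2400, against 2806 with Dox), and Tubb3, higher with IAA (1130, against 999 with Dox). Endothelial markers (5 of 6 found, Cdh5 at 0) summed to 2120 to 2262 with IAA and 1814 to 1943 with Dox, mostly from Pecam1. Fibroblast markers summed to 15.1 to 32.6 with IAA and 46.0 to 50.2 with Dox, mostly from Thy1, with 4 of 7 at 0. Primitive endoderm markers summed to 103 to 112 with IAA and 95.7 to 111 with Dox, mostly from Gata4. The naive pluripotency sums given above were higher with IAA in mES, though Sox2 of that list was lower. Of the 9 genes, 4 were higher and the other 5 were lower. The part of these marker lists in the results was not tested.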

How the data were processed

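Reads had been aligned to mm10 with STAR 2.5.3a and counted per gene with featureCounts 1.5.2, and DESeq2 was also named, per the submitters' processing notes. The gene annotation and whether counting used strand are not given in the sources used here. Per the file headers, each deposited table holds 1 column per library, a mean over libraries, DESeq2 log2 fold changes with standard errors, a test score and p-values with adjusted p-values. The library columns are a signal, gene counts that the authors divided by 1 size factor per library: 100% of the values came back to whole reads within 1e-06, so the read depth is known. The tables hold 35742 genes, of which 14339 have no symbol.

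Genes with a mean of at least 1 were tested with limma 3.58.1 (R 4.3.3, trended variance) on log2 of the value plus 1. IAA was set against Dox within a stage over its 6 libraries, and EB days were set against each other within a treatment over its 12 libraries. Calls use a Benjamini-Hochberg adjusted p under 0.05 over all genes tested. The script was tested on simulated data. The count tests edgeR 4.0.16 (quasi-likelihood) and DESeq2 1.42.0 were run on the recovered reads as alternatives. edgeR called 7932 genes in mES, against 7821 with limma. Further alternatives were a pseudocount of 0.5, a minimum mean of 5 or none, TMM scaling, a replicate block, a fit of all 24 libraries and leaving out each library.

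The members, gene lists and markers were chosen with earlier results of these data known. Named relatives are the genes called in mES, at most the 2 of each list with the smallest p, and the uncalled relatives of Chrm1, Grm4 and Tmem132d were named after their values were seen. The genes most alike are the 2 with the highest correlation among genes with a mean of at least 10. Positions are from GENCODE M21 on mm10, and promoters from RefSeq on GRCm38.p6.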

Additional observations from a re-analysis of the deposited data

Results flagged for a closer look

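The values below are IAA over Dox log2 fold changes (limma) with all IAA libraries on one side of Dox on an EB day and on the other side in mES. The difference between the stages was not tested. Groups of 3 libraries are too small for a test of single outlying libraries.

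Of the 9 genes, 4 had such values. Tmem132d was at -1.12 ± 0.36 in EBd3 and -1.83 ± 0.37 in EBd4, with 2.40 ± 0.20 in mES. Enpp3 was at 0.50 ± 0.05 in EBd2 and 0.31 ± 0.06 in EBd3, with -2.73 ± 0.12 in mES. Ramp3 was at 0.55 ± 0.16 in EBd2, 0.34 ± 0.16 in EBd3 and 0.30 ± 0.16 in EBd4, with -2.71 ± 0.43 in mES. Rgs20 was at 0.54 ± 0.17 in EBd2, with -2.49 ± 0.41 in mES.

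Of the relatives named in the report, Enpp5 was at 0.32 ± 0.11 in EBd3 and 0.45 ± 0.10 in EBd4, with -0.95 ± 0.14 in mES. Rgs17 was at 1.07 ± 0.41 in EBd2, with -1.93 ± 0.44 in mES. Ramp2 was at 0.35 ± 0.17 in EBd3, with -1.19 ± 0.37 in mES, and Dpysl3 was at 0.19 ± 0.09 in EBd4, with -0.73 ± 0.05 in mES. Il17ra, a receptor gene of the IL-17 family named here after its values were seen, was at 0.41 ± 0.11 in EBd2 and 0.28 ± 0.13 in EBd3, with -0.32 ± 0.12 in mES.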

How the results depend on the processing

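The IAA over Dox values of the 9 genes moved by less than 1 replicate SD in 495 comparisons with an alternative and by more in 6. Most of the 495 could not have moved further. Leaving out 1 of 3 libraries shifts a value by less than 1 replicate SD by construction. The replicate block, the fit of all 24 libraries and the changed minimum mean leave the value as it is. Only the pseudocount, TMM scaling, edgeR and DESeq2 could move it by more. The 6 values that moved by more were larger in size, all with edgeR or DESeq2. With edgeR and DESeq2 in that order, they were -3.43 and -3.55 for Ramp3 in mES and -2.95 and -3.01 for Rgs20 in mES. For Tmem132d in EBd4 they were -2.03 and -2.06. Of the EB-day steps of the 9 genes, 656 kept their side of the threshold, 8 passed it and 20 lost it, and each changed call stands with its gene in the report. No EB-day step turned its direction where it passed the threshold in the main fit or in the alternative. Steps that did not pass changed sign with a library left out in some cases. With IAA these were both steps of Chrm1 (-0.45 up to 0.06, and -0.52 up to 0.04) and both of Grm4. With Dox they were EBd3 over EBd2 for Il17f (-0.20 up to 0.02) and EBd4 over EBd3 for Tmem132d (0.00 down to -0.21).

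Of the counts of called genes, EBd3 had 2245, and 1283 with DESeq2 and 1202 to 2613 with a library left out (1321 without IAA 1, 1274 without Dox 1, 1202 without Dox 2 and 1463 without Dox 3). EBd4 had 2173, and 1365 with the replicate block, 3487 in the fit of all 24 libraries and 776 to 2039 with a library left out (887 without IAA 2, 776 without Dox 1 and 837 without Dox 2). Over all genes, DESeq2 called 5542 in mES and 4835 in EBd2. The called relatives numbered 13 in mES and 8 with DESeq2, and 14 in EBd2, 8 with DESeq2 and 7 in the fit of all 24 libraries. In EBd3 they numbered 3, 1 with DESeq2 and 1 to 4 with a library left out, and in EBd4 6, and 3 to 6 with a library left out. The cause was not tested.

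Libraries share a replicate number across treatments. Within stages, same-numbered libraries were compared by how each gene deviated from its group mean. The correlation of these deviations over genes ran from -0.218 to 0.107, so the number was not taken as a pairing. With the replicate block 7931 genes were called in mES, 6679 in EBd2 and 2402 in EBd3. Depth limits Chrm1, Il17f and Tmem132d in EB and Ramp3 and Rgs20 in mES with IAA, which rest on few reads.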
